A study of Mus musculus with 12 samples.

Results

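The ABCA lipid transporters are a subfamily of ATP-binding cassette proteins, membrane pumps that use ATP to move lipids across or out of a membrane. The 9 mouse genes described here are Abca1, Abca2, Abca3, Abca5, Abca6, Abca7, Abca8a, Abca8b and Abca9, of 22180 genes measured. They were chosen with their glucose differences on these arrays already known, so their values are given as a description without a test. Each gene was read from the probe set that carries exactly its symbol in the platform annotation, and each of the 9 had 1 such probe set. Of the 9 genes, 5 lie side by side on chromosome 11 (Abca8b, Abca8a, Abca9, Abca6 and Abca5) and 4 lie elsewhere.

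ABCA proteins hand lipids to acceptors outside the cell or load them into vesicles, lamellar bodies and lysosomes. ABCA1 exports cholesterol and phospholipid to apolipoprotein A-I, the first step in making HDL, and is switched on by the sterol-sensing nuclear receptors LXR. In the artery wall this export limits the cholesterol load of macrophages and smooth muscle cells. Much less is known of the clustered genes, which arose by local duplication.

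RNA came from cultured primary smooth muscle cells taken from aortas of the C57BL/6J mouse strain and kept to passage 3 to 4 in DMEM medium with 10% fetal calf serum. The groups were 6 arrays of cells in 4.5 g/l (25 mM) glucose and 6 arrays of cells in 0.3 g/l (1.7 mM) glucose, numbered as replicates 1 to 6 in each. The labels disagree on the length of culture (14 days in the series text, 1 week in the sample labels). The labels do not say whether arrays came from separate cultures or animals, so a p-value here reflects only how far these samples scatter, and that scatter may be technical.

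All values are log2 RMA values, a brightness scale on which levels of different probe sets are not compared, with array medians of 4.92 to 5.05. One array, 0.3 g/l replicate 4, stood apart from the rest of its group, so results that rest on it are also given without it. On the same arrays Acta2, smooth muscle alpha actin, averaged 13.83 ± 0.06 in 4.5 g/l and 13.15 ± 0.24 in 0.3 g/l (SD, n = 6 each). The endothelial genes Cdh5 and Pecam1 were both above 4.20, the value under which the dimmest 25% of genes fell, with Cdh5 at 10.51 ± 0.51 in 4.5 g/l and 11.10 ± 0.39 in 0.3 g/l (SD, n = 6 each) and Pecam1 at 9.49 ± 0.42 in 4.5 g/l and 9.74 ± 0.08 in 0.3 g/l. The macrophage gene Adgre1, at 3.99 ± 0.10 in 4.5 g/l and 3.87 ± 0.31 in 0.3 g/l, and the fat cell gene Adipoq, at 3.62 ± 0.24 in 4.5 g/l and 3.58 ± 0.23 in 0.3 g/l (SD, n = 6 each), averaged below 4.20, as did 4 of 12 macrophage markers and 1 of 9 fat cell markers in all, these 2 genes included.

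Of the 9 transporter genes, Abca6 was higher in 4.5 g/l glucose and the other 8 had negative differences, the largest in Abca8b and Abca7. Abca6 was 2.27-fold higher in 4.5 g/l, whereas Abca8b of the same cluster was 1.76-fold lower and Abca7 was 1.53-fold lower. Abca1, the cholesterol exporter, differed by -0.05 ± 0.07 (log2 difference ± SE). Of the 9 genes, 1 was past the limma threshold of an adjusted p of 0.05 upward (Abca6) and 1 downward (Abca8b, not Abca7). Over all genes 7.01% were higher and 8.52% lower. Both directions together took in 15.5% of all genes. Without 0.3 g/l replicate 4, 1 of the 9 was past it upward and 5 downward (Abca3, Abca5, Abca7, Abca8b and Abca9), where 10.3% of all genes were higher, 13.6% lower and 23.9% either. As the members were picked from this contrast, nothing is read from those counts.

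**Figure D1:**
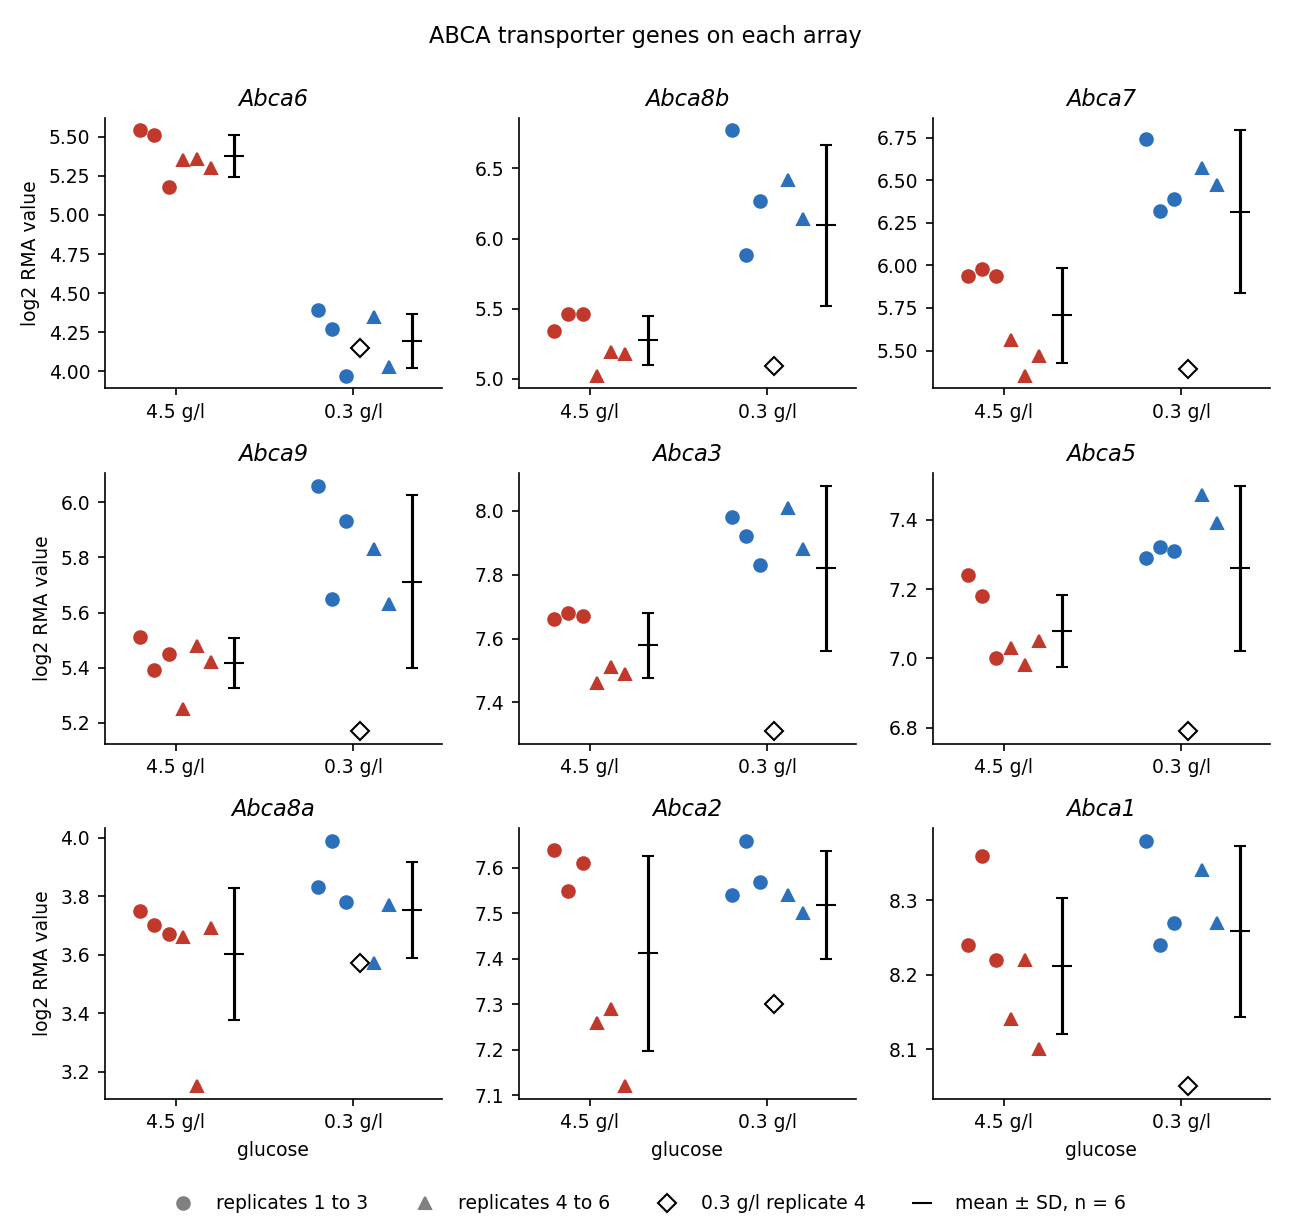
Log2 RMA value (y axis) of each of the 9 ABCA genes on each array, with 4.5 g/l glucose left and 0.3 g/l right; circles are replicates 1 to 3, triangles replicates 4 to 6, the open diamond is 0.3 g/l replicate 4, and the bar is the mean ± SD (n = 6). Only in the Abca6 panel are the groups apart on all 12 arrays; 0.3 g/l replicate 4 is the lowest array of its group in 7 of the 9 panels, all but Abca6 and Abca8a.

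Among the clustered genes, Abca6, a transporter of unsettled substrate whose human counterpart is linked to blood cholesterol, had a lowest, median and highest value of 5.18, 5.36 and 5.54 in 4.5 g/l, and of 3.97, 4.21 and 4.39 in 0.3 g/l. Every 4.5 g/l array was above every 0.3 g/l array, and 0.3 g/l replicate 4, at 4.15, lay among the other 0.3 g/l arrays. Such a full separation of the arrays was seen in 1 of the 9 genes, and in 6.40% of all genes (3.49% higher and 2.90% lower). The log2 difference of Abca6 was 1.18 ± 0.09 (SE) over all arrays, 1.17 ± 0.09 without 0.3 g/l replicate 4, 1.20 ± 0.14 within replicates 1 to 3 and 1.16 ± 0.11 within replicates 4 to 6. Its 0.3 g/l values lie around the 4.20 bound of dim genes, where RMA compresses differences, so the fold is uncertain. A change in the number of cells of a type that carry a transcript and a change in its amount per cell cannot be told apart in such bulk RNA, here and for all genes below.

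Abca8b, whose human counterpart ABCA8 takes part in cholesterol efflux, had a lowest, median and highest value of 5.02, 5.26 and 5.46 in 4.5 g/l, and of 5.09, 6.20 and 6.77 in 0.3 g/l. The overlap came from 0.3 g/l replicate 4, at 5.09, since the other 5 arrays of that group lay at 5.88 to 6.77, above all 4.5 g/l arrays. The log2 difference of Abca8b was -0.82 ± 0.21 (SE), and -1.02 ± 0.14 without that array. Its sister copy Abca8a, the mouse duplicate of the same ancestral gene, gave 3.15, 3.68 and 3.75 in 4.5 g/l and 3.57, 3.78 and 3.99 in 0.3 g/l as lowest, median and highest value. All its values are below 4.20, the groups overlapped, and the difference was -0.15 ± 0.11 (SE; -0.19 ± 0.11 without 0.3 g/l replicate 4).

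Abca9, a little-studied neighbour, gave 5.25, 5.43 and 5.51 in 4.5 g/l as lowest, median and highest value, and 5.17, 5.74 and 6.06 in 0.3 g/l. Its difference was -0.30 ± 0.12 (SE), and -0.40 ± 0.08 without 0.3 g/l replicate 4, which at 5.17 was below all 4.5 g/l arrays while the other 5 arrays of its group were above them. Abca5, a transporter of lysosomes and late endosomes, gave 6.98, 7.04 and 7.24 in 4.5 g/l, and 6.79, 7.31 and 7.47 in 0.3 g/l. Here too the 5 other arrays of 0.3 g/l, at 7.29 to 7.47, were above all 4.5 g/l arrays and replicate 4 was below them; the difference was -0.18 ± 0.10 (SE), and -0.27 ± 0.06 without it.

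Outside the cluster, Abca7, a phospholipid transporter known for its part in phagocytosis and, in humans, for a link to Alzheimer's disease, gave 5.35, 5.75 and 5.98 in 4.5 g/l as lowest, median and highest value, and 5.39, 6.43 and 6.74 in 0.3 g/l. The 4.5 g/l arrays fell into replicates 1 to 3, at 5.94 to 5.98, and the lower replicates 4 to 6, at 5.35 to 5.56. In 0.3 g/l, 5 arrays lay at 6.32 to 6.74 and replicate 4 at 5.39. The log2 difference of Abca7 was -0.61 ± 0.20 (SE), and -0.79 ± 0.13 without that array. Abca3, which loads surfactant phospholipid into the lamellar bodies of the lung, gave 7.46, 7.59 and 7.68 in 4.5 g/l, and 7.31, 7.90 and 8.01 in 0.3 g/l. Its difference was -0.24 ± 0.11 (SE), and -0.34 ± 0.06 without 0.3 g/l replicate 4, the single 0.3 g/l array that was not above all the 4.5 g/l arrays.

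Abca2 and Abca1, like Abca8a, overlapped between the groups with or without that array. Abca2, an endosomal and lysosomal transporter best known from oligodendrocytes, gave 7.12, 7.42 and 7.64 in 4.5 g/l as lowest, median and highest value, and 7.30, 7.54 and 7.66 in 0.3 g/l. Its difference was -0.11 ± 0.10 (SE; -0.15 ± 0.09 without 0.3 g/l replicate 4). Abca1 gave 8.10, 8.22 and 8.36 in 4.5 g/l, and 8.05, 8.27 and 8.38 in 0.3 g/l, so the groups covered nearly the same range. Without 0.3 g/l replicate 4 its difference was -0.09 ± 0.06 (SE). With that array left out, 6 of the 9 transporter genes had fully separate groups, 1 higher and 5 lower, against 18.9% of all genes (7.87% higher and 11.0% lower).

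**Figure D2:**
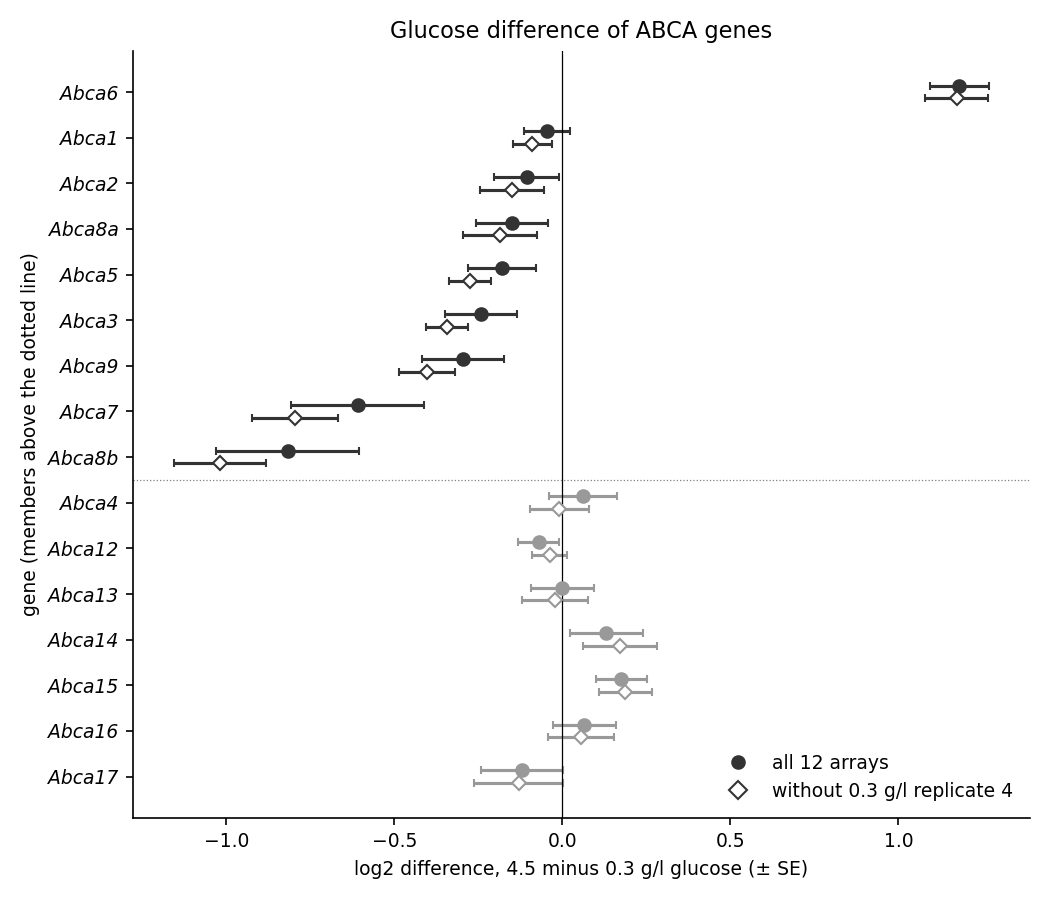
Log2 difference, 4.5 minus 0.3 g/l glucose (x axis, ± SE from limma), of the 9 members above the dotted line and of 7 further ABCA genes below it (y axis), over all 12 arrays (filled circles) and without 0.3 g/l replicate 4 (open diamonds). Abca6 stands alone on the right at 1.18 and Abca8b is farthest left at -0.82; leaving out that array moves Abca8b to -1.02 and leaves Abca6 at 1.17.

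The clustered genes did not move as a block. The mean log2 difference over the 5 clustered genes was -0.052, and over the 4 other members -0.251, so the clustered genes lay 0.199 above the others, a gap that was 0.203 without 0.3 g/l replicate 4. That gap was carried by Abca6: the other 4 clustered genes had a mean difference of -0.361, or -0.471 without that array. The gap was 0.108 within replicates 1 to 3 and 0.290 within replicates 4 to 6. Negative differences in 8 of the 9 genes held when the arrays were scaled by quantile normalization, cyclic loess or median centring, where Abca1 was at -0.028, -0.015 and -0.040 (log2). They did not all hold within replicates 1 to 3, where Abca2 was at 0.01 ± 0.07 (SE). The median difference of all genes was -0.007 without rescaling. As the members were picked with these values known, nothing is read from the count.

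RefSeq places the 5 clustered genes in the order Abca8b, Abca8a, Abca9, Abca6 and Abca5 with no other protein-coding gene that has a probe set between them. The 3 nearest protein-coding genes with a probe set on each side are not members and were tested. Fam20a, a pseudokinase that helps the secretory pathway kinase FAM20C, lies on the Abca8b side and was lower in 4.5 g/l, at 7.69, 7.81 and 7.95 (lowest, median and highest) in 4.5 g/l and 8.08, 8.66 and 8.78 in 0.3 g/l. It fell by 0.77 ± 0.11 on the log2 scale (SE; limma adjusted p = 0.000533), with no overlap between the groups. Map2k6, a kinase that activates p38, lies next to Abca5 and rose by 0.67 ± 0.19 (SE; limma adjusted p = 0.0295).

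Map2k6 lay at 4.34, 4.79 and 5.28 in 4.5 g/l and at 3.85, 4.01 and 4.86 in 0.3 g/l as lowest, median and highest value, where 4.86 is replicate 4. It did not pass when 0.3 g/l replicate 2, 3, 5 or 6 or 4.5 g/l replicate 1, 2 or 3 was left out (log2 differences of 0.586 to 0.666), and its dim 0.3 g/l values make the fold uncertain. The other 4 neighbours did not pass in limma with all 12 arrays. Prkar1a, a regulatory subunit of protein kinase A, differed by 0.07 ± 0.06 (SE), the gene 1700012B07Rik by 0.08 ± 0.08, and the potassium channels Kcnj16 by 0.02 ± 0.13 and Kcnj2 by 0.06 ± 0.21. So 2 of 6 neighbours passed, 1 in each direction, where 15.5% of all genes passed.

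**Figure D3:**
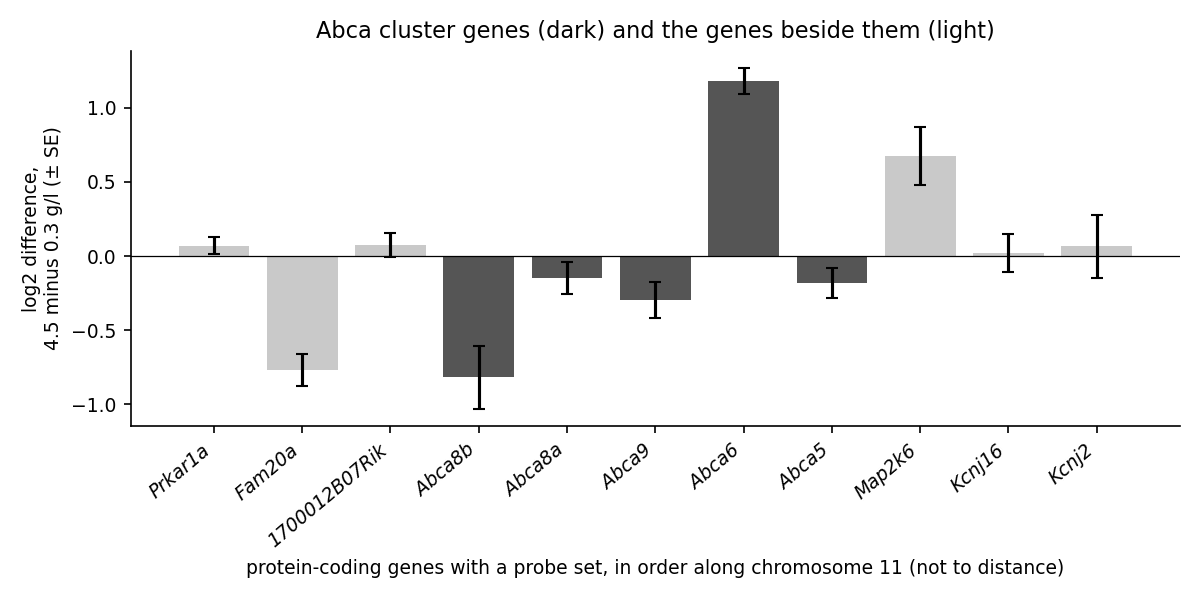
Log2 difference, 4.5 minus 0.3 g/l glucose (bars, y axis, ± SE from limma, all 12 arrays), of the 5 clustered Abca genes (dark) and the 3 nearest protein-coding genes with a probe set on each side (light), in their order along chromosome 11 and not to distance (x axis). Abca6 at 1.18 stands between Abca9 at -0.30 and Abca5 at -0.18, and Map2k6 beyond Abca5 is at 0.67.

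Promoter sequences from RefSeq (GRCm38.p6; 250 bases before to 50 after the start) were at hand for 8 of the 9 members. The member without one is Abca6, so nothing in this paragraph covers its promoter. All 4 clustered genes among the 8 run on the minus strand. The 8 promoters were searched on both strands for 8 motifs. These were CACGTG, the E-box core bound by the glucose-sensing MondoA and ChREBP among other factors, the same core flanked by T and A, the DR4 element of LXR (AGGTCA repeated after a gap of 4 bases), the ATF4 element TGATGNAA, the GC box GGGCGG, the TATA box TATAAA, the CCAAT box CCAAT, and CC and GG with 6 bases between them, the frame of the CArG box bound by serum response factor. The flanked form lies within matches of the core. CACGTG, its own reverse complement, was in 3 of the 8 promoters and in 7.15% of the 32851 promoters of the table, and its matches are printed with the E-box in capitals, 5′ to 3′, so that the genes that hold it can be set beside their differences. The printed stretches were chosen after the matches were seen.
Abca1: gggccatgtctcCACGTGctttctgctgag
Abca8a: ttcgagaatggtCACGTGaatacagtgctc
Abca8b: gccatgcgcggtCACGTGtccgtggtgttt
These lie at chr4:53160025-53160054, minus strand, at chr11:110096056-110096085, minus strand, and at chr11:109995810-109995839, minus strand, where the last is just after the start. The log2 differences of these 3 genes were -0.05 ± 0.07, -0.15 ± 0.11 and -0.82 ± 0.21 (SE). The GC box was in 6 of the 8 promoters, all but those of Abca8a and Abca9, and in 35.7% of the table. For the genes with the largest negative differences, Abca8b and Abca7, the 250 bases before the start are given with the GC box in capitals (read on the other strand as CCGCCC).
Abca8b: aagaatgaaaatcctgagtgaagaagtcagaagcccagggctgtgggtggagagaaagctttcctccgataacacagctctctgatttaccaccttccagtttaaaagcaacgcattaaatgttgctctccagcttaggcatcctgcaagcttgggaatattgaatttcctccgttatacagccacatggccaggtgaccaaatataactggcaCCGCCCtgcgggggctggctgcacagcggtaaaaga
Abca7: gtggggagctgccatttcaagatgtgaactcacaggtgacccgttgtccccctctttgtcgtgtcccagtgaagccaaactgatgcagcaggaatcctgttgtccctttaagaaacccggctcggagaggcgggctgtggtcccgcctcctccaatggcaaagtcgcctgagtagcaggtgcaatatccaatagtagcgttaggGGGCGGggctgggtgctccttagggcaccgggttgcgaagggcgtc
These are chr11:109995846-109996095, minus strand, and chr10:79996244-79996493, plus strand. The flanked E-box was in 1 of the 8 (Abca8a; 0.974% of the table), the TATA box in 1 (Abca1; 13.6%), the CCAAT box in 1 (Abca7; 37.4%) and the CArG frame in 7 (all but Abca8a; 73.3%). The DR4 element was in 0 of the 8 and 0.0152% of the table, and the ATF4 element in 0 of the 8 and 3.97% of the table. Only these exact DR4 letters were searched, which 5 of the 32851 promoters hold. With so rare a string 0 of 8 was close to fixed beforehand, so it does not show that LXR elements are absent. The matches are a description of these windows and say nothing on the binding of a factor.

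The 9 genes were next set beside other ABC transporters. None of the 7 further ABCA genes measured passed in limma (smallest adjusted p = 0.151, with 1 of 7 at an unadjusted p under 0.05 and 0 of 7 in the exact rank-sum test). Their log2 differences ran from -0.12 in Abca17 to 0.17 in Abca15, with Abca4, the retinoid transporter of photoreceptors, at 0.06 ± 0.10, Abca12, the skin lipid transporter, at -0.07 ± 0.06, Abca13 at -0.00 ± 0.09, Abca14 at 0.13 ± 0.11 and Abca16 at 0.07 ± 0.09 (SE). The mean of 4 of the 7 was below 4.20.

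Of 42 measured ABC transporter genes that are no members, 5 fell, 2 rose and 35 did not pass, or 16.7% called against 15.5% of all genes, with a median log2 difference of -0.027 against -0.007 for all genes. Without 0.3 g/l replicate 4, 9 fell and 2 rose, and 4 in all passed when 4.5 g/l replicate 4, 5 or 6 or 0.3 g/l replicate 3 or 6 was left out. The cyclic nucleotide and prostaglandin exporter Abcc4 lay at 6.85, 6.99 and 7.20 in 4.5 g/l as lowest, median and highest value and at 6.92, 8.72 and 9.13 in 0.3 g/l, and fell by 1.53 ± 0.29 (SE; limma adjusted p = 0.00287). As in Abca8b, replicate 4 was the one 0.3 g/l array within the 4.5 g/l range, and without it Abcc4 fell by 1.85. The porphyrin transporter Abcb6 fell by 0.56 ± 0.11 (SE; limma adjusted p = 0.00343), and the dim chloride channel gene Cftr fell by 0.67 ± 0.15 (SE; limma adjusted p = 0.00948). Abcg1, the partner of Abca1 in cholesterol efflux, differed by 0.03 ± 0.09 (SE; limma adjusted p = 0.902).

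Genes of LXR signalling and cholesterol efflux fell in 4 of 17 cases and 13 did not pass (median log2 difference -0.111). That is 23.5% of the list, against 15.5% of all genes. Of the 17, 0 averaged below 4.20, where 5545 of all 22180 genes did, so the 2 shares are not for equally bright genes. With those dim genes left out, 4 of the list still passed, and 3956 genes in all. The sterol, sphingolipid, smooth muscle, fibroblast, endothelial and fat cell lists below meet the same base, with 0 to 2 dim genes each. Abcg1 and Abcg4 are in the LXR list as well as among the ABC transporters. Without 0.3 g/l replicate 4, 5 fell and 2 rose; 1 passed when 0.3 g/l replicate 1, 3, 5 or 6 or 4.5 g/l replicate 6 was left out, and 2 without 4.5 g/l replicate 4 or 5. Lipoprotein lipase, Lpl, lay at 6.24, 6.39 and 6.80 in 4.5 g/l as lowest, median and highest value and at 6.13, 7.70 and 7.78 in 0.3 g/l, and fell by 1.02 ± 0.24 (SE; limma adjusted p = 0.0112). Replicate 4 held the 0.3 g/l low of 6.13, while the other 5 arrays of its group were all above the 4.5 g/l arrays. The LXR partner Rxrb fell by 0.27 ± 0.07 and the cholesteryl ester hydrolase Nceh1 by 0.37 ± 0.10 on the log2 scale (SE; limma adjusted p = 0.0236 and 0.0251), and both lost the threshold when 0.3 g/l replicate 1, 3, 5 or 6 or 4.5 g/l replicate 6 was left out, Nceh1 also without 4.5 g/l replicate 4 or 5. With their probe sets averaged, Nceh1 was at -0.231 and Lpl at -0.735 on the log2 scale.

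Besides Lpl, the known LXR target Pltp, which transfers phospholipid between lipoproteins, fell by 0.69 ± 0.21 (SE; limma adjusted p = 0.0363). It was named after its values were seen, as the last of the 4 genes that passed. Pltp lost the threshold when 4.5 g/l replicate 4, 5 or 6 or 0.3 g/l replicate 1, 2, 3, 5 or 6 was left out (adjusted p = 0.0682 to 0.0851). Among the 13 genes of the list that did not pass over all 12 arrays, Nr1h3, LXR alpha, differed by -0.03 ± 0.12 (SE; limma adjusted p = 0.925), the ubiquitin ligase Mylip by 0.00 ± 0.07 (0.992), the lipogenic factor Srebf1 by -0.13 ± 0.11 (0.534) and the apolipoprotein Apoe by -0.24 ± 0.17 (0.403), with the limma adjusted p in brackets for the last 3 too.

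Genes of sterol uptake and transport changed in both directions, with 7 of 24 lower, 3 higher and 14 not past the threshold (median log2 difference -0.042; 10 lower and 4 higher without 0.3 g/l replicate 4). These are 41.7% of the list, against 15.5% of all genes. Cav1, the caveolar coat protein that binds cholesterol, rose by 0.85 ± 0.13 (SE; limma adjusted p = 0.000731) and the groups did not overlap. Stard5, a cytosolic sterol carrier, fell by 0.76 ± 0.14 (SE; limma adjusted p = 0.00233). Npc1, which moves cholesterol out of lysosomes, fell by 0.60 ± 0.11 (SE; limma adjusted p = 0.00283), or by 0.357 with its probe sets averaged (limma adjusted p = 0.00852). In both of these, replicate 4 of 0.3 g/l, at 7.06 and 9.19, lay within the 4.5 g/l range.

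Of 28 genes of sphingolipid metabolism, 4 fell and 24 did not pass (median log2 difference -0.051; 8 fell and 3 rose without 0.3 g/l replicate 4). In all 2 passed when 0.3 g/l replicate 1, 3, 5 or 6 or 4.5 g/l replicate 3 was left out. The ceramide synthase Cers2 fell by 0.32 ± 0.07 on the log2 scale (SE; limma adjusted p = 0.00945), the ceramidase Acer3 by 0.41 ± 0.10 (0.0178) and the sphingosine kinase Sphk2 by 0.25 ± 0.07 (0.0230), with the limma adjusted p in brackets. Cers2 did not pass when its probe sets were averaged (-0.183, limma adjusted p = 0.0627). Sphk2 lost the threshold when 0.3 g/l replicate 1, 2, 3, 5 or 6 or 4.5 g/l replicate 3 was left out. Against the 15.5% of all genes that passed, 14.3% of this list did. With the dimmest 25% of all genes left out, 8 of the list passed.

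**Figure D4:**
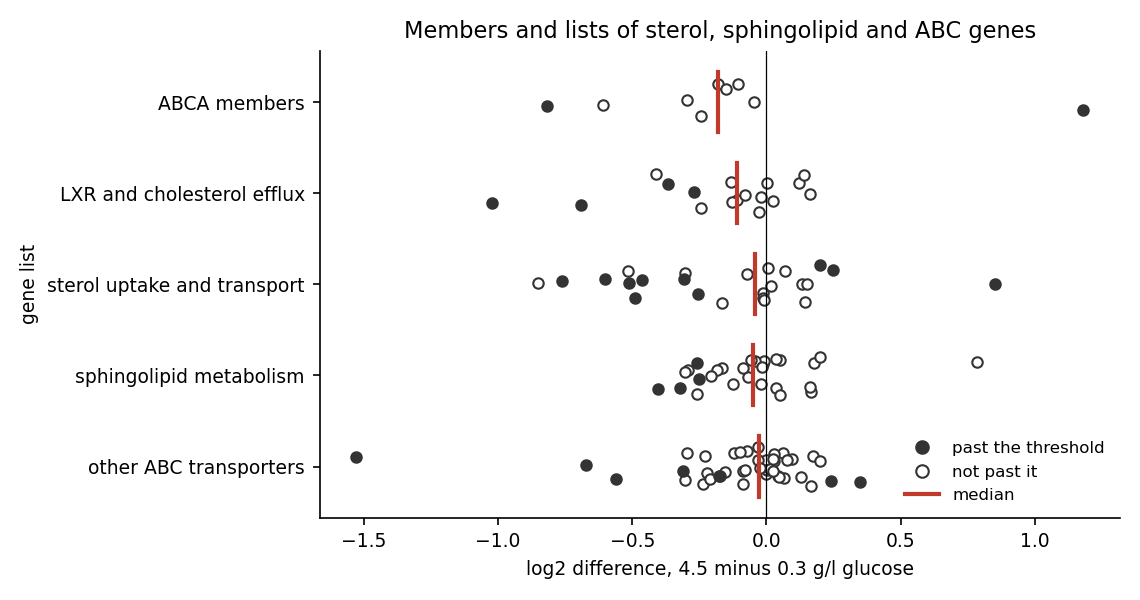
Log2 difference, 4.5 minus 0.3 g/l glucose (x axis, all 12 arrays), of the 9 ABCA members and of each gene in 4 lists (y axis); filled points were past an adjusted p of 0.05 in limma, open points were not, and red lines are medians. Most genes of every list lie near 0, Abca6 at 1.18 is farthest right among the members, and Abcc4 at -1.53 is farthest left among the other ABC transporters.

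The mean of the endothelial markers moved with some members. In 4.5 g/l, the mean of 12 endothelial marker genes spanned 8.00 to 8.12 on replicates 1 to 3, but only 7.34 to 7.37 on replicates 4 to 6. In 0.3 g/l it was 7.54 on replicate 4, with 8.02 to 8.05 on the remaining 5 arrays. On that replicate Cldn5, at 5.55, was above the remaining arrays of 0.3 g/l (5.00 to 5.44). Kdr, at 5.51, lay among them (5.39 to 5.60), and every other marker was below them. In 4 of the 9 transporter genes, Abca2, Abca3, Abca7 and Abca8b, those 4 arrays (4.5 g/l replicates 4 to 6 and 0.3 g/l replicate 4) were all below the other 8. How many of all genes part in this way was not counted, so nothing is read from that count. Abca2 was at 7.12 to 7.30 on the 4 and at 7.50 to 7.66 on the 8, and Abca3 at 7.31 to 7.51 and at 7.66 to 8.01. Within the 4.5 g/l group Abca8b spanned 5.34 to 5.46 on replicates 1 to 3, but 5.02 to 5.19 on replicates 4 to 6. Within replicates 1 to 3 the list means were alike in both groups, but single markers were not: 3 of 12 were lower and 9 higher in 4.5 g/l, and 2 passed in limma, Tek at -0.45 ± 0.10 and Erg at 0.40 ± 0.07 (SE; limma adjusted p = 0.0251 and 0.0109; named after their values were seen). Of all 22180 genes, 2900 passed within replicates 1 to 3. In that range the log2 difference of Abca7 was -0.53 ± 0.12, of Abca8b -0.89 ± 0.20, of Abca9 -0.43 ± 0.11, of Abca3 -0.24 ± 0.07 and of Abca2 0.01 ± 0.07 (SE). The part of the endothelial markers in the differences over all arrays was not tested. Of the 12 endothelial genes 1 fell in limma, Emcn, by 0.43 ± 0.12 (SE; limma adjusted p = 0.0236), and 3 fell without 0.3 g/l replicate 4. Over all 12 arrays 8.33% of the endothelial list passed, against 15.5% of all genes. Emcn lost the threshold when 4.5 g/l replicate 4, 5 or 6 or 0.3 g/l replicate 1, 3 or 5 was left out.

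**Figure D5:**
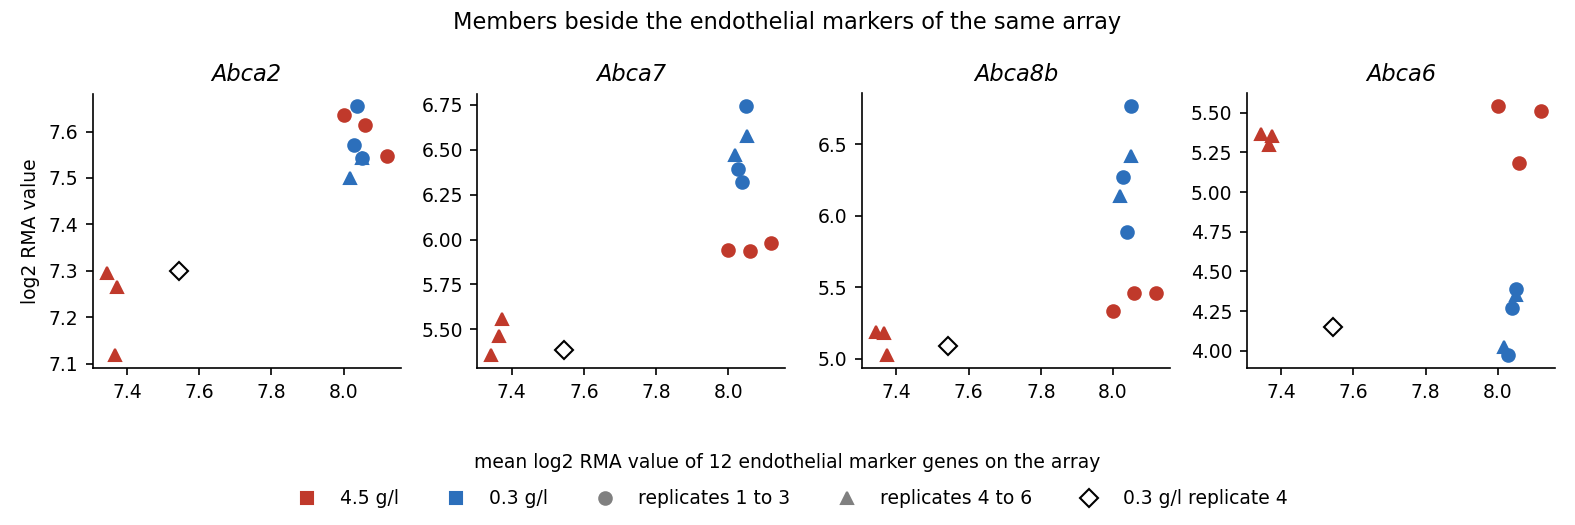
Log2 RMA value of Abca2, Abca7, Abca8b and Abca6 (y axes) against the mean log2 RMA value of 12 endothelial marker genes on the same array (x axis); red is 4.5 g/l, blue is 0.3 g/l, circles are replicates 1 to 3, triangles replicates 4 to 6, and the open diamond is 0.3 g/l replicate 4. In Abca2 the 4 arrays with means of 7.34 to 7.54 are the lowest, in Abca7 and Abca8b the groups also part at means of 8.00 and above, and in Abca6 the groups are apart at every mean.

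The fibroblast list had 2 higher and 2 lower of 11 measured genes and 7 that did not pass (median log2 difference -0.047). That is 36.4% of the list, against 15.5% of all genes. Col14a1 rose by 0.37 ± 0.10 (SE; limma adjusted p = 0.0193), Cd34 fell by 1.02 ± 0.12 (SE; limma adjusted p = 0.000195) and Lama2 fell by 0.72 ± 0.09 (SE; limma adjusted p = 0.000336). Pdgfra, the receptor that marks fibroblasts, differed by 0.36 ± 0.12 (SE; limma adjusted p = 0.0504) and, with 0.3 g/l replicate 4 left out, rose by 0.44 (limma adjusted p = 0.0051). In 4.5 g/l the list mean spanned 6.34 to 6.40 on replicates 1 to 3, but 6.03 to 6.11 on replicates 4 to 6. In 0.3 g/l it was 6.26 on replicate 4, with 6.21 to 6.38 on the remaining 5 arrays. The part of these markers in the difference of Abca6 was not tested.

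In the macrophage list 1 of 12 genes passed, Mertk, a phagocytic receptor, which rose by 0.34 ± 0.05 (SE; limma adjusted p = 0.000949). Against 15.5% of all genes, 8.33% of the macrophage list passed, 11.1% of the fat cell list and 80.0% of the smooth muscle list. Of the 12 macrophage genes, 4 averaged below 4.20, and the list mean was 5.17 to 5.39 on 4.5 g/l arrays, against 5.23 to 5.37 on 0.3 g/l arrays (5.26 on replicate 4). Cd68, a lysosomal macrophage protein, differed by -0.00 ± 0.22 (SE; limma adjusted p = 0.995). In the fat cell list 1 of 9 passed, Pparg, which fell by 0.49 ± 0.08 (SE; limma adjusted p = 0.00120), and the list mean was 5.02 to 5.30 on 4.5 g/l arrays, against 5.13 to 5.30 on 0.3 g/l arrays (5.20 on replicate 4). In the smooth muscle list 8 of 10 rose (9 without 0.3 g/l replicate 4; median log2 difference 1.465), with the smallest p in Kcnmb1, Synpo2 and Myh11, at 2.36 ± 0.17, 2.51 ± 0.19 and 3.18 ± 0.26 (SE; limma adjusted p = 8.58e-06, 8.58e-06 and 1.22e-05), with list means of 10.13 to 10.38 in 4.5 g/l, against 8.46 to 8.63 on 5 arrays of 0.3 g/l and 9.58 on its replicate 4.

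The genes most like 2 of the profiles were found by the root mean square difference over the 12 arrays after each profile was centred on its own mean, among 17293 named genes. For the mean of the 5 clustered genes these were Ndrg1 (0.0492 on the log2 scale), Nek9 (0.0618), Pip4k2b (0.0636), Acsl5 (0.0640) and Sema6b (0.0686), where the profile's own SD was 0.177. That mean joins Abca6, at 1.18, with genes of negative difference, and its lowest array was 0.3 g/l replicate 4, at -0.42. The 5 named genes differed by -0.08 to 0.01 between the groups, unlike Abca6 or Abca8b. For Abca1, with an SD of 0.102, the most alike were Cd151 (0.0373), Psap (0.0377), Gnb1 (0.0415), Ctnnb1 (0.0425) and Cc2d2a (0.0425). These values describe the 12 arrays, which share their groups and 0.3 g/l replicate 4.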

How the data were processed

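The authors deposited log2 values for every probe set on each of the 12 arrays; the submitters' processing notes name Affymetrix Expression Console and RMA, a method that subtracts background, equalises array distributions and summarises probes. Versions and a genome build are not given in the sources used here. Values ran from 0.60 to 13.90. Of 41345 probe sets, 23521 had 1 gene symbol, 1814 had several and 16010 were unnamed here; each of 22180 genes took its brightest probe set on average. Groups came from the sample titles.

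Fits used limma 3.58.1 in R 4.3.3 (lmFit, eBayes, two-sided) on all genes, with p-values adjusted by Benjamini-Hochberg over the whole table and called at 0.05, and were tested on simulated data. The members, the 9 gene lists (165 of 177 entries matched) and the tests were chosen with earlier results of these data known. Named were all members, all ABCA genes, the neighbours, the 3 called genes with the smallest p of each list, and Abcg1, Nr1h3, Nr1h2 (not matched), Apoe, Srebf1, Mylip, Pdgfra, Pecam1, Cdh5, Adgre1, Cd68, Adipoq, Myh11 and Acta2. Alternatives changed the moderation, dim genes, scaling, probe sets, array weights, a block for replicate number, the test (rank-sum), and the arrays used. A microarray has no read depth, so precision rests on the number of arrays; the SE of a log2 difference had a median of 0.0931. Figures used matplotlib 3.10.9.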

Additional observations from a re-analysis of the deposited data

Results flagged for a closer look

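A sample far from the rest of its group was looked for in 112 groups of 6 arrays, by the gap to the nearest array as a share of the group's range, against Dixon's critical value, which chance passes in about 5% of groups. It was passed 23 times, 19 of them by 0.3 g/l replicate 4. Among the transporters that array was low in Abca3 (a share of 0.751, at 7.31), Abca5 (0.738, at 6.79) and Abca7 (0.690, at 5.39). It was also low in Abcb6 (0.659), Abcc4 (0.801), Apoe (0.631), Lpl (0.934), Npc1 (0.834), Stard5 (0.848), Cers2 (0.799), Sphk2 (0.756), Cdh5 (0.807) and Cd68 (0.734). It was high in Cav1 (0.674), Myh11 (0.878), Acta2 (0.671), Kcnmb1 (0.767), Synpo2 (0.749) and Pdgfra (0.715). In 4.5 g/l, replicate 5 was low in the dim gene Abca8a (0.852, at 3.15), replicate 3 was low in Abca14 (0.745, at 3.43) and replicate 1 was high in Abcg1 (0.675, at 6.01). In 0.3 g/l, replicate 1 was high in Mylip (0.715, at 7.89). In Abca6 no array stood apart by this measure.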

How the results depend on the processing

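Leaving out 1 array at a time gave 2514 to 5295 changed genes (3444 with all), 2 to 6 of the 9 members past the threshold, 4 to 11 of the other ABC transporters (7 with all), 24 to 52 list genes (33 with all), 1 to 2 neighbours, and a gap between clustered and other members of 0.166 to 0.225; the highest counts were those without 0.3 g/l replicate 4. Array weights gave 5419 genes, 6 members, 11 other ABC transporters and 53 list genes. The exact rank-sum test gave 1993 genes, 1 member, 3 other ABC transporters, 19 list genes and 1 neighbour. Within replicates 1 to 3, 3 other ABC transporters passed, the gap was 0.108, and Kcnj16 passed at -0.32 against 0.02 with all arrays. Kcnj16 differed in the opposite direction, by 0.36 ± 0.16 (SE), within replicates 4 to 6. Within replicates 4 to 6, limma passed 30 genes, 1 member, 3 list genes, 0 other ABC transporters (8 at an unadjusted p under 0.05) and 0 neighbours (1 at an unadjusted p under 0.05), with a gap of 0.290; without 0.3 g/l replicate 4 this became 3435 genes, 5 members, 8 other ABC transporters, 3 neighbours, 51 list genes and a gap of 0.309. Each number range holds fewer arrays than the full set. Replicates 1 to 3, with as many arrays as replicates 4 to 6, passed 2900 genes. The cause of these differences was not tested. With the replicate block Map2k6 and Sphk2 lost the threshold (limma adjusted p = 0.0619 and 0.0513), and 12 named genes lost it in the exact rank-sum test (adjusted p = 0.0724 to 0.213), namely Abcb6, Abcc4, Cftr, Lpl, Nceh1, Npc1, Stard5, Cers2, Acer3, Sphk2, Emcn and Map2k6, as did Pltp (0.0964). The replicate block gave 3130 genes, 3 members, 7 other ABC transporters, 35 list genes and 1 neighbour. Same-numbered arrays correlated by -0.0458 to 0.173 in their deviations, over 0.1 in 2 of 6. Of the 6 arrays of 4.5 g/l, 2 correlated best with their own number. Replicates 1 to 3 of 4.5 g/l correlated best with 0.3 g/l replicate 2, and replicates 4 to 6 with 0.3 g/l replicate 4. Whether arrays of the same number or number range share a culture or batch was not tested. Abca8a fell among the dimmest 25%, so the gap has no value without those genes. Signal near background limits Abca8a, Abca6 in 0.3 g/l, Map2k6 and Cftr.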
